A study of Mus musculus with 9 samples.

Results

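Imprinted genes are transcribed mainly from the copy inherited from 1 parent, and 10 of them were followed here through mouse pancreatic tumor cells and 2 resistant lines derived from them: H19, Dlk1, Meg3, Peg3, Peg10, Mest, Cdkn1c, Plagl1, Grb10 and Ndn. They were taken by symbol from the gene table, which held all 10 among its 24493 genes. The groups were escape e2, escape e1 and the parental cells, each with 3 RNA sequencing libraries. All 9 libraries are of untreated cells in DMEM and serum, and the mouse background is C57BL/6. The series describes e2 and e1 as resistant to immunotherapy and derived from the parental line, and the labels used here do not say which therapy was given, whether each line is 1 clone, or whether each library had a culture of its own. The p-values below therefore measure only the spread between these libraries.

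Imprinting is laid down in the germ line as DNA methylation at control regions, and the mark is kept through replication by DNA methyltransferases and by zinc finger proteins that recognise the methylated copy. Many imprinted genes act on growth before birth: genes used from the paternal copy, such as Igf2 and Dlk1, tend to promote it, and genes used from the maternal copy, such as H19, Cdkn1c and Grb10, tend to restrain it. Some fall silent in adult tissues, and their return or loss is a familiar feature of tumors. The values used here are sums over both copies, so allele use was not measured.

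Expression was given as TPM, a share of transcripts corrected for transcript length that sums to the same total in each library and keeps no read depth, so the depth behind each value is unknown. Each library had from 11188 to 12039 genes with 1 TPM or more. A gene entered the test, in limma on log2(TPM + 1), if 3 or more of the 9 libraries reached 1 TPM, and 12769 genes did. Log2 fold changes below are on that scale, which understates the change of low genes, and an adjusted p under 0.05 is named a call. Library 1 of e1 stood somewhat apart: across genes its log2 values correlated at 0.987 with both other e1 libraries, which correlated at 0.994 with each other. As a check of the labelled tumor cells, 6 epithelial markers were summed (Krt7, Krt8, Krt18, Krt19, Epcam and Cdh1). The sum was 1675 to 1735 TPM in e2, 1164 to 1207 TPM in e1 and 8044 to 9324 TPM in parental cells. All 6 fell in both lines, where 32.7% of all tested genes were called lower in e2 and 34.9% in e1. Epcam entered the test through parental cells alone. Of 8 fibroblast markers 6 were tested, none of which reached 1 TPM in a parental library, so no count of calls is given for them, and the sum of the 8 ran from 192.5 to 201 TPM in e2, from 237 to 261 TPM in e1 and from 0.637 to 0.995 TPM in parental cells, with Lum listed at 0 in every library. The T cell gene Cd3e was listed at 0 in every library. Whether these marker shifts bear on the imprinted genes was not tested. In bulk RNA, fewer cells that use a gene and less RNA per cell cannot be told apart.

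The comparisons of e2 and of e1 with parental cells share the 3 parental libraries. A gene that stood at 1 TPM or more in a single group entered the test through that group. Its libraries of that group had to lie above all others, though not always far enough for a call. Among the genes described here this way of entry holds for H19, Igf2, Sfmbt2, Bnc2 and Six3 in e1, for Rasgrf1 in e2, and for Dio3, Snrpn, Mkrn3, Slc22a18, Igf2bp3, Ddc, Cobl and Epcam in parental cells.

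Only 3 of the 10 genes, Mest, H19 and Cdkn1c, reached the level needed for the test, and each had its own pattern. Mest fell in both lines, more so in e2. H19 rose in e1 and stayed below 0.3 TPM elsewhere. Cdkn1c rose in e1 and fell in e2. Of the other 7, Grb10 and Ndn stood between 0.497 and 1.04 TPM in e2 and below 0.1 TPM in e1 and parental cells, Plagl1 lay between 0.379 and 0.842 TPM throughout, and Dlk1, Meg3, Peg3 and Peg10 stayed under 0.4 TPM in all 9 libraries.

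**Figure D1:**
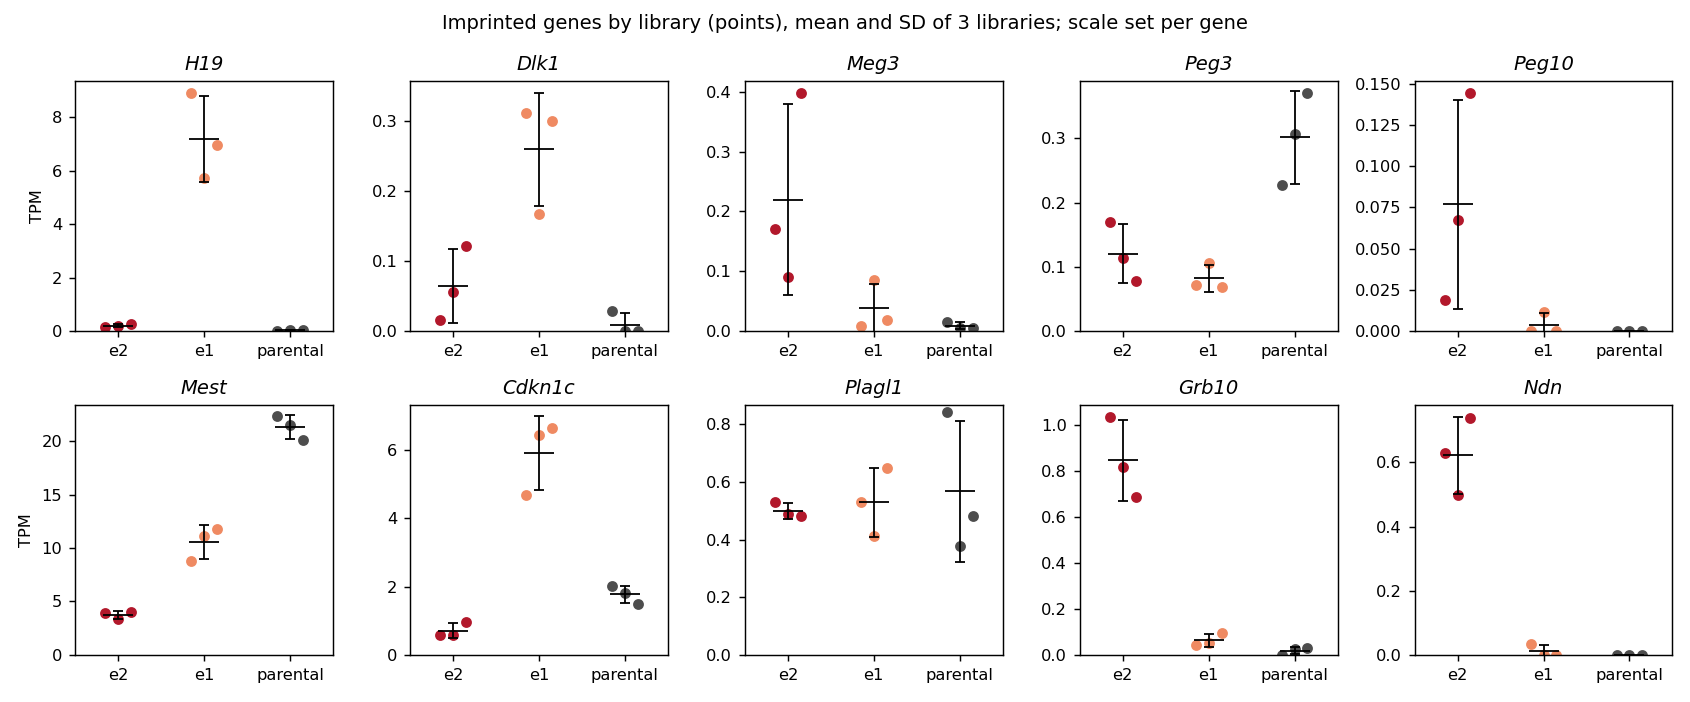
TPM of each of the 10 imprinted genes in e2, e1 and parental libraries. Points are libraries, and bars give the mean and SD of 3 libraries, with the vertical scale set separately for each gene. H19 and Cdkn1c are highest in e1, Grb10 and Ndn in e2, and Mest in parental cells.

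H19, on chromosome 7 (142575530 to 142578146, GRCm38.p6), is a long noncoding RNA used from the maternal copy, abundant in the embryo and shut down after birth. It stood at 0.146, 0.208 and 0.275 TPM in e2, at 8.92, 5.72 and 6.95 TPM in e1, and at 0, 0.0539 and 0.0332 TPM in parental cells. The e1 libraries all lay far above the other 6, and the e2 libraries lay above the parental ones by a small margin. The log2 fold change in e1 was 2.98 ± 0.13 (SE; adjusted p = 3.43e-08). Between the lines, e2 was lower than e1 by a log2 fold change of -2.74 ± 0.13 (adjusted p = 1.08e-07). For e2 against parental cells the value of 0.23 ± 0.13 did not pass (adjusted p = 0.129). Leaving out e1 library 1 gave a call (adjusted p = 0.0314), as did a fit with only e2 and parental libraries (adjusted p = 0.0252), a pseudocount of 0.1 (1.26, adjusted p = 0.00136) and the rlog values (0.65, adjusted p = 0.00465), and over all alternatives the adjusted p ran from 0.00136 to 0.283.

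Within its body H19 holds the hairpin of miR-675, a microRNA cut from the H19 transcript. Its mature forms are shown, from RefSeq (GRCm38.p6, minus strand), because they are the small RNAs that this locus can give. Capitals mark the seed, bases 2 to 8, by which a microRNA pairs with its targets.
mmu-miR-675-5p: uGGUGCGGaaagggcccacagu
mmu-miR-675-3p: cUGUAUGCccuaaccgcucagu
The row for Mir675 was listed at 0 in all 9 libraries, e1 included. The labels do not state a library made for small RNA, so the table gives no level of the mature forms.

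Igf2 lies next to H19, 72.6 kb away on the same chromosome (142650768 to 142666816), encodes a fetal growth factor, and is normally used from the paternal copy while H19 is used from the maternal one through a shared enhancer. It had the same pattern as H19 at a higher level: 0.0889, 0.0212 and 0.107 TPM in e2, 21.2, 18.0 and 18.5 TPM in e1, and 0.0512, 0.0165 and 0 TPM in parental cells. The e1 libraries stood apart from all 6 others, and the e2 and parental libraries overlapped. The log2 fold change was 4.30 ± 0.08 in e1 (adjusted p = 2.34e-10) and 0.07 ± 0.08 in e2 (adjusted p = 0.482), and e2 was lower than e1 by -4.23 ± 0.08 (adjusted p = 6.89e-10). Within each e1 library Igf2 stood above H19, by a ratio of TPM of 2.38, 3.14 and 2.65. Igf2os, an antisense transcript that overlaps Igf2, was also highest in e1, but the strand setting of the counting is not given, so its reads cannot be told apart from those of Igf2.

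The other tested genes within 300 kb of H19 did not share a direction. Lsp1, an actin-binding protein gene 80.7 kb away, rose in both lines (2.40 ± 0.12 in e2, adjusted p = 6.57e-08; 3.36 ± 0.12 in e1, adjusted p = 6.99e-09). Tnni2, a troponin gene, fell in both (-2.92 ± 0.09 in e2, adjusted p = 3.99e-09; -2.63 ± 0.09 in e1, adjusted p = 8.39e-09), and Syt8, a synaptotagmin gene, did too (-2.98 ± 0.17 in e2, adjusted p = 1.94e-07; -2.68 ± 0.17 in e1, adjusted p = 4.58e-07). Mrpl23, a mitochondrial ribosomal protein gene on the side away from Igf2, 34.8 kb from H19, rose in e2 (0.58 ± 0.09, adjusted p = 0.00027) and fell in e1 (-0.29 ± 0.09, adjusted p = 0.015).

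**Figure D2:**
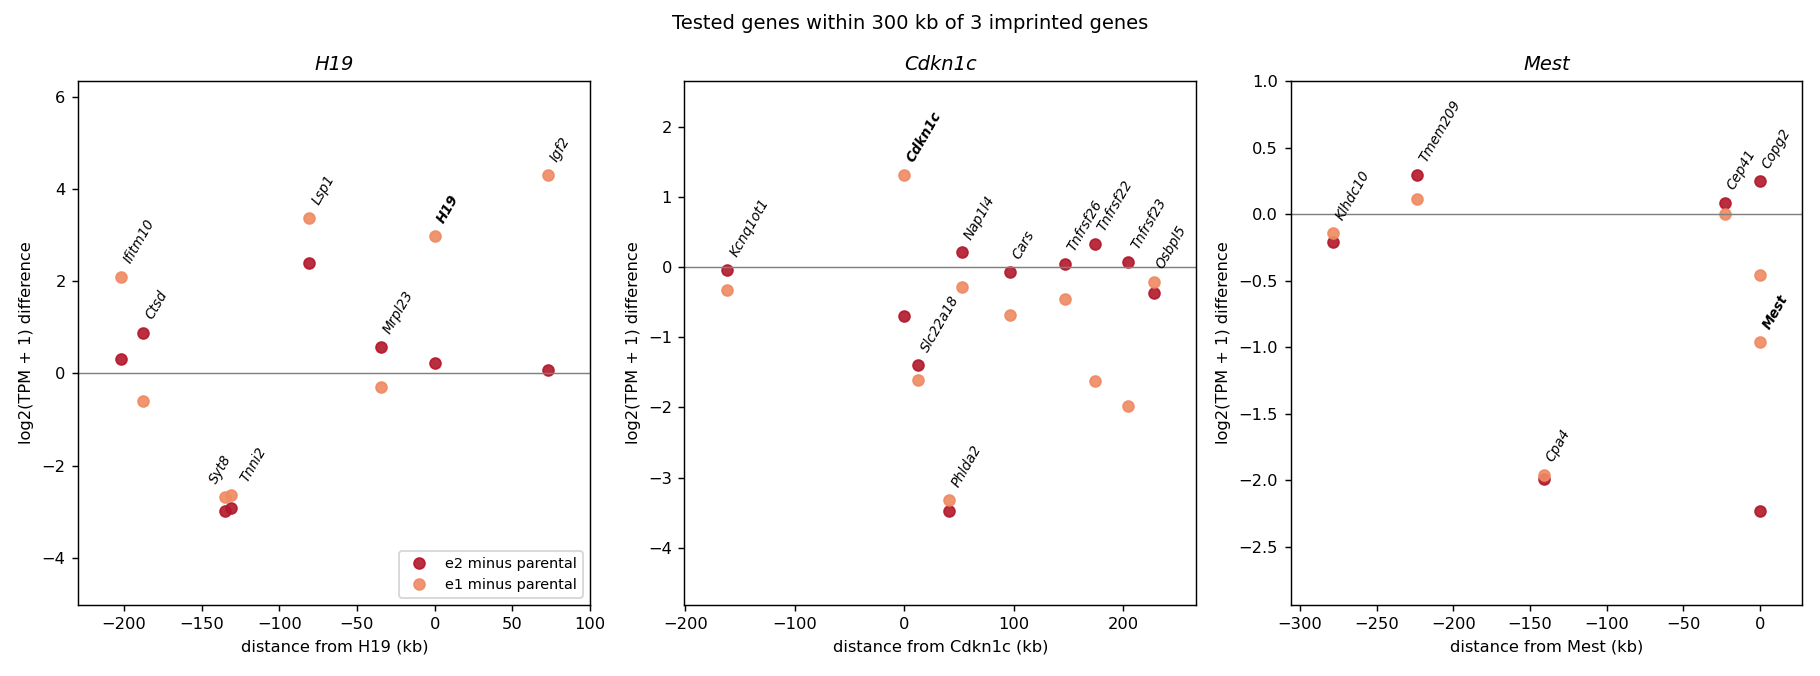
Difference in log2(TPM + 1) of e2 minus parental and of e1 minus parental for H19, Cdkn1c and Mest and for the tested genes within 300 kb, against the distance in kb between gene ends, with 0 for the named gene or for overlap with it. In the H19 window Igf2 and H19 are high in e1 and near 0 in e2, whereas in the Cdkn1c window Phlda2 and Slc22a18 are low in both lines.

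Cdkn1c, also on chromosome 7 (143458339 to 143461059), encodes p57, an inhibitor of cyclin-dependent kinases used from the maternal copy. Its level was 0.572, 0.592 and 0.967 TPM in e2, 4.67, 6.44 and 6.63 TPM in e1, and 2.01, 1.80 and 1.50 TPM in parental cells. No library of a group overlapped with another group, and the order ran from e2, the lowest, through parental cells to e1. The log2 fold change was 1.31 ± 0.14 in e1 (adjusted p = 2.12e-05) and -0.70 ± 0.14 in e2 (adjusted p = 0.00139), and e2 was lower than e1 by -2.01 ± 0.14 (adjusted p = 1.39e-06).

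The imprinted neighbours of Cdkn1c took another course. Phlda2, a pleckstrin homology protein known for limiting placental growth and 40.5 kb away, stood at 6.39, 5.83 and 6.99 TPM in e2, at 10.2, 6.47 and 5.55 TPM in e1, and at 66.0, 93.0 and 86.9 TPM in parental cells. It fell in both lines, with a log2 fold change of -3.47 ± 0.19 in e2 (adjusted p = 1.86e-07) and -3.33 ± 0.19 in e1 (adjusted p = 2.85e-07), and the e2 and e1 libraries overlapped. Slc22a18, a transporter-like gene between Cdkn1c and Phlda2, also fell, to 0.222 ± 0.0973 TPM in e2 and 0.0575 ± 0.0586 TPM in e1, against 2.23 ± 0.272 TPM in parental cells (SD, n = 3 each; adjusted p = 6.75e-07 and 2.87e-07). Kcnq1ot1, the paternally used noncoding RNA that silences this cluster in cis, stood at 1.16 ± 0.0284 TPM in e2, 0.778 ± 0.0438 TPM in e1 and 1.22 ± 0.0570 TPM in parental cells. It fell in e1 (-0.32 ± 0.07, adjusted p = 0.00176) and did not pass in e2 (-0.04 ± 0.07, adjusted p = 0.615), and without strand its reads cannot be told apart from those of Kcnq1, which it overlaps. Of the 9 tested genes within 300 kb of Cdkn1c, 2 were higher and 3 lower in e2, at an adjusted p under 0.05, and 0 were higher and 8 lower in e1. Of all tested genes 40.8% were higher and 32.7% lower in e2, and 35.7% were higher and 34.9% lower in e1. Slc22a18 is among the 9 and entered the test through parental cells alone. Tnfrsf22 and Tnfrsf23, decoy receptor genes of the TNF family with similar sequences, were among those lower in e1 (-1.62 ± 0.08, adjusted p = 7.1e-08, and -1.97 ± 0.16, adjusted p = 3.49e-06), and reads may be split between them.

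Mest, on chromosome 6 (30733506 to 30748466), encodes an enzyme of the alpha/beta hydrolase fold used from the paternal copy, and was the highest of the 10 in every group by mean TPM. It stood at 3.94, 3.34 and 4.02 TPM in e2, at 8.76, 11.1 and 11.8 TPM in e1, and at 22.4, 21.5 and 20.1 TPM in parental cells. The groups did not overlap, and each library of e2 lay below each of e1, which lay below each parental library. The log2 fold change was -2.23 ± 0.11 in e2 (adjusted p = 6.38e-08) and -0.96 ± 0.11 in e1 (adjusted p = 2.89e-05), with e2 below e1 by -1.27 ± 0.11 (adjusted p = 5.05e-06). As a share of the summed TPM of the 10 genes, Mest made up 50.8 to 54.5% in e2, 37.5 to 46.0% in e1 and 87.8 to 89.3% in parental cells.

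Mest hosts miR-335 within its annotated span, on the plus strand, and the table listed Mir335 at 0 in all 9 libraries, with the limit given for Mir675. The mature forms and the 250 bases before a start of Mest on chr6:30737800-30738049 (plus strand, RefSeq, GRCm38.p6) are shown because this gene fell in both lines. Methylation of the promoter was not measured. In the microRNAs capitals mark the seed, and in the promoter they mark CG dinucleotides.
mmu-miR-335-5p: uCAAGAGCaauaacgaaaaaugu
mmu-miR-335-3p: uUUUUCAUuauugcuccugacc
Mest promoter: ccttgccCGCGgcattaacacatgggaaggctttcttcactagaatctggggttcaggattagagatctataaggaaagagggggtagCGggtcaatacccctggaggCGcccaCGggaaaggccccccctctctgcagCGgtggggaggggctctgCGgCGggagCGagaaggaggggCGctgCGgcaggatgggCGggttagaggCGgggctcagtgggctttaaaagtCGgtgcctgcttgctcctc
The stretch holds 14 CG dinucleotides. Together with the 50 bases after the start it holds 17, more than 68.6% of the 32851 promoter windows of that length in the RefSeq table, whose median is 7. The 6-base core TGCCGC, which the imprint-keeping protein Zfp57 recognises when methylated, occurred 2 times in this Mest window, counted on both strands, and occurs in 11.6% of all windows. The window of the most upstream Mest start in the table holds 8 CG dinucleotides and 0 such cores. The core also occurred 1 time in a window of Meg3 and 1 time in that of Plagl1, and 0 times in those of Dlk1 and Peg3.

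Copg2, a coat protein gene whose annotated span overlaps the end of Mest, is used from the maternal copy in some tissues. Its level was 22.8 ± 0.446 TPM in e2, 13.8 ± 2.09 TPM in e1 and 19.1 ± 0.527 TPM in parental cells (SD, n = 3 each). It fell in e1 (-0.45 ± 0.09, adjusted p = 0.00178). In e2 it was higher by 0.25 ± 0.09 (adjusted p = 0.0383), a call that ended with median-ratio scaling (0.16, adjusted p = 0.128), with the rlog values (0.14, adjusted p = 0.115), with no filter, with the replicate block (adjusted p = 0.0578) and when any 1 of the e2 or parental libraries was left out. Where Copg2 and Mest overlap, their reads cannot be told apart without strand. Cep41, the nearest tested gene on the other side of Mest, did not pass in e2 (0.08 ± 0.12, adjusted p = 0.544) or in e1 (-0.00052 ± 0.12, adjusted p = 0.998).

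Of these 3 tested genes, 0 were higher and 2 lower in e2 against parental cells, where 73.5% of all 12769 tested genes were called, 40.8% higher and 32.7% lower. In e1 against parental cells 2 were higher and 1 lower, where 70.6% of all tested genes were called, 35.7% higher and 34.9% lower. In e2 against e1 all 3 were lower, where 70.3% of all tested genes were called, 40.6% higher and 29.7% lower. The balance over all genes in e2 against parental cells, 5209 higher and 4174 lower, turned to 4664 higher and 4822 lower with median-ratio scaling and to 4625 higher and 4808 lower with the rlog values, with a median of -0.01 in both rather than 0.07. With most tested genes called, the number of imprinted genes called does not set them apart. With only 3 genes tested, no median is given for them, and H19 among them entered the test through e1 alone.

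The remaining 7 genes did not reach 1 TPM in 3 libraries, and for them the test was run only with no filter on low values, on 19340 genes. Under it 7 of the 10 genes were called in e2 against parental cells, where 56.4% of all genes were called. In e1 against parental cells 5 were called, where 52.5% of all genes were. In e2 against e1 the count was 7, where 51.9% of all genes were called. The adjusted p-values in the next paragraphs are from that test.

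Grb10, on chromosome 11 (11930499 to 12037428), encodes an adaptor that damps signals of the insulin and IGF receptors, and is used from the maternal copy in most tissues and from the paternal copy in neurons. It stood at 1.04, 0.817 and 0.689 TPM in e2, at 0.0451, 0.0504 and 0.0959 TPM in e1, and at 0, 0.0247 and 0.0304 TPM in parental cells. The e2 libraries lay well above the other 6, at a level that is still low. The difference on the log2(TPM + 1) scale was 0.86 ± 0.06 in e2 (adjusted p = 4.87e-06) and 0.06 ± 0.06 in e1 (adjusted p = 0.47), and e2 was above e1 by 0.79 ± 0.06 (adjusted p = 1.13e-05). Its neighbour Ddc, which encodes the enzyme that makes dopamine and is imprinted in the heart, fell in both lines (-3.74 ± 0.28 in e2, adjusted p = 1.4e-06; -3.77 ± 0.28 in e1, adjusted p = 1.41e-06, among the genes tested at 1 TPM).

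Ndn, on chromosome 7 (62348277 to 62349928), encodes necdin, a growth-restraining protein of the MAGE family used from the paternal copy. It stood at 0.629, 0.497 and 0.739 TPM in e2, was listed at 0 in 2 e1 libraries and at 0.0353 TPM in the other, and was listed at 0 in all 3 parental libraries. The e2 libraries again stood apart. The difference in e2 against e1 was 0.68 ± 0.05 (adjusted p = 6.9e-06). Mkrn3, a paternally used ring finger gene of the same cluster, ran the other way, at 0.383 ± 0.115 TPM in e2, 0.919 ± 0.0691 TPM in e1 and 1.19 ± 0.0946 TPM in parental cells. It was tested at 1 TPM and fell in e2 (-0.67 ± 0.08, adjusted p = 6.03e-05).

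The promoters of Grb10 and Ndn are shown because both genes had their highest level in e2. For Grb10, which has 2 starts in the RefSeq table, the one with more CG dinucleotides was chosen. The 250 bases before the start are on chr11:12037421-12037670 (minus strand) and chr7:62348027-62348276 (plus strand), and capitals mark CG dinucleotides.
Grb10 promoter: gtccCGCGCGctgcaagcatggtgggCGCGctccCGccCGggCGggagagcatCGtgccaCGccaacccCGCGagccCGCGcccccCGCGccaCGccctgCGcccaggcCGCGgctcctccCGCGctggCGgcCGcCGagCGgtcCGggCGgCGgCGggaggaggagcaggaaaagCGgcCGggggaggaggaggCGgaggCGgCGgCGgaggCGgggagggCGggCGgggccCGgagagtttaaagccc
Ndn promoter: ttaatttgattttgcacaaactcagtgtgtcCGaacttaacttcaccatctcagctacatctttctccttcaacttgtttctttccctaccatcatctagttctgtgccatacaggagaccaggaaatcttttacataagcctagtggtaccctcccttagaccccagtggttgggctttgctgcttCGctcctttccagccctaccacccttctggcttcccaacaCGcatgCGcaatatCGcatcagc
They hold 40 and 5 CG dinucleotides. Over the full windows of 300 bases the counts are 45 for Grb10, more than 98.1% of all windows, and 11 for Ndn, more than 58.6%. The window of the other Grb10 start holds 9, more than 54.2%, and 0 Zfp57 cores, so the order against Ndn depends on the start taken. The Zfp57 core occurred 1 time in the Grb10 window with 45 and 0 times in that of Ndn.

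Dlk1, a membrane protein related to Notch ligands, and Meg3, a noncoding RNA, lie 77.7 kb apart on chromosome 12 (109452485 to 109463336 and 109540996 to 109571729) and are used from opposite parental copies, Dlk1 from the paternal and Meg3 from the maternal copy. Dlk1 stood at 0.0156, 0.0565 and 0.121 TPM in e2, at 0.311, 0.167 and 0.299 TPM in e1, and at 0.0282, 0 and 0 TPM in parental cells. Meg3 stood at 0.170, 0.0908 and 0.398 TPM in e2, at 0.00915, 0.0856 and 0.0195 TPM in e1, and at 0.0155, 0.00501 and 0.00618 TPM in parental cells. Dlk1 was thus highest in the e1 libraries and Meg3 in the e2 libraries, each without overlap, at levels that may rest on few reads. With no filter Dlk1 was higher in e1 against parental cells (0.32 ± 0.05, adjusted p = 0.000746) and Meg3 in e2 against parental cells (0.27 ± 0.08, adjusted p = 0.0178). Rian, a noncoding RNA farther along the same maternal transcript unit, was also highest in e2, at 0.993, 1.12 and 1.27 TPM, against 0.167, 0.0227 and 0.151 TPM in e1 and 0.138, 0.0167 and 0.0205 TPM in parental cells (1.01 ± 0.08 in e2 against parental cells, adjusted p = 5.29e-06). Mirg, at the far end of that unit, stood at no more than 0.0552 TPM in any library, and all 60 microRNA rows within 300 kb of Meg3 were listed at 0.

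Dio3, an enzyme that inactivates thyroid hormone, lies at the far end of the same imprinted domain. Unlike Dlk1, Meg3 and Rian, it was highest in parental cells. Rtl1, a paternally used gene of the domain, was listed at 0 in every e2 and e1 library. In parental cells Rtl1 was near the floor, at 0.0116, 0.0224 and 0.0276 TPM. Dio3 stood at 0.438, 0.477 and 0.857 TPM in e2, was listed at 0, 0 and 0.0434 TPM in e1, and stood at 14.4, 13.6 and 12.4 TPM in parental cells. Among the genes tested at 1 TPM it fell in e2 (-3.19 ± 0.11, adjusted p = 5.77e-09) and in e1 (-3.83 ± 0.11, adjusted p = 1.86e-09).

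Peg3, a zinc finger protein gene on chromosome 7 (6703892 to 6730462) used from the paternal copy, stood at 0.170, 0.114 and 0.0781 TPM in e2, at 0.0717, 0.107 and 0.0682 TPM in e1, and at 0.227, 0.307 and 0.371 TPM in parental cells. Every escape library lay below every parental library, and the lines overlapped. With no filter it was lower in e2 (-0.22 ± 0.05, adjusted p = 0.00403) and in e1 (-0.27 ± 0.05, adjusted p = 0.00134). Peg10, a paternally used gene derived from a retrotransposon, on chromosome 6 (4747306 to 4760517), stood at 0.0189, 0.0674 and 0.144 TPM in e2, and was listed at 0 in 2 e1 libraries (0.0119 TPM in the other) and in every parental library. Its divergent neighbour Sgce, which encodes epsilon-sarcoglycan and shares its control region, stood at 0.285, 0.531 and 0.430 TPM in e2, at 0, 0.0511 and 0.0484 TPM in e1, and was listed at 0 in the parental libraries. Both were highest in e2 by these values.

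Plagl1, a zinc finger transcription factor on chromosome 10 (13090832 to 13131694) known to regulate other imprinted genes, did not follow either pattern. It stood at 0.531, 0.488 and 0.482 TPM in e2, at 0.529, 0.411 and 0.649 TPM in e1, and at 0.842, 0.379 and 0.480 TPM in parental cells, and all groups overlapped. Its difference was -0.05 ± 0.11 in e2 (adjusted p = 0.714) and -0.03 ± 0.11 in e1 (adjusted p = 0.889). The 8-base core GGGGCCCC that Plagl1 is known to favour, the same on both strands, was searched in the promoter windows of the 7 members that the RefSeq table holds. It occurred 1 time in that of Peg3 and 0 times in the others, and it occurs in 1.08% of all windows.

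Other imprinted genes gave a wider view. Of 49 listed, 47 were in the table and 23 were tested. The 23 include Igf2, Sfmbt2, Rasgrf1, Dio3, Snrpn, Mkrn3 and Slc22a18, which each entered the test through 1 group. Their libraries of that group had to lie above all others, and the counts below include them. Mkrn3 was still not called in e1 against parental cells (-0.19 ± 0.08, adjusted p = 0.0653). In e2 against parental cells 11 were higher and 6 lower, with a median log2 fold change of 0.12, beside 0.07 over all tested genes. In e1 against parental cells 6 were higher and 9 lower, with a median of -0.13, beside 0.02 over all tested genes. In e2 against e1, 12 were higher and 4 lower, with a median of 0.22, beside 0.09. The called share was 17 of 23 in e2, 15 of 23 in e1 and 16 of 23 in e2 against e1. Over all tested genes it was 73.5%, 70.6% and 70.3%. By direction, 40.8% of all tested genes were higher and 32.7% lower in e2, and 35.7% and 34.9% in e1. In e2 against e1 the shares were 40.6% higher and 29.7% lower, so higher calls also prevailed over all genes. Of the 12 tested genes used from the paternal copy, 6 were higher and 3 lower in e2 and 4 were higher and 4 lower in e1. Of the 11 used from the maternal copy, 5 were higher and 3 lower in e2 and 2 were higher and 5 lower in e1. Several are imprinted only in some tissues or isoforms.

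**Figure D3:**
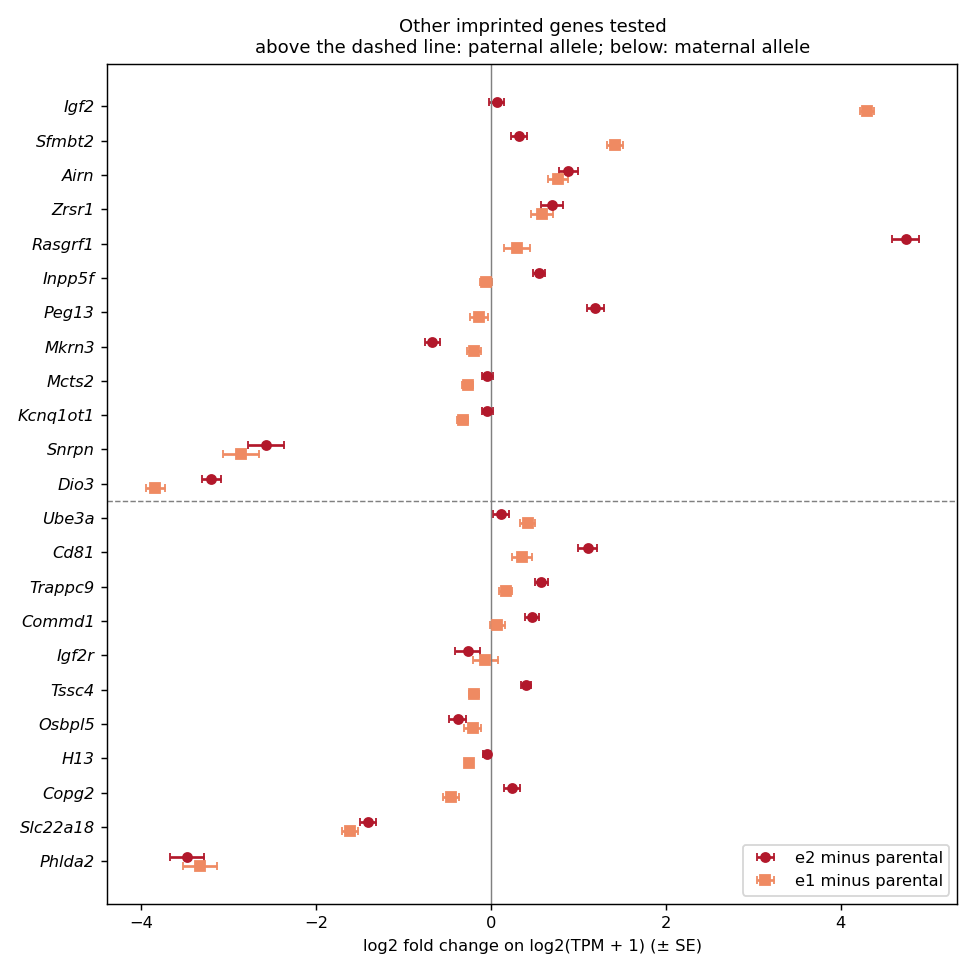
Log2 fold change on the log2(TPM + 1) scale, with SE, of e2 minus parental and of e1 minus parental for the 23 further imprinted genes tested, in genes used from the paternal copy (top) and from the maternal copy (bottom). Igf2 and Rasgrf1 stand out on the right, each in 1 line, and Dio3, Snrpn and Phlda2 on the left in both lines.

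Rasgrf1, a Ras exchange factor of neurons used from the paternal copy, was highest in e2, at 26.5, 28.2 and 28.2 TPM, against 0.0635, 0.299 and 0.646 TPM in e1 and 0.217, 0 and 0 TPM in parental cells. The e2 libraries stood alone (4.74 ± 0.15 against parental cells, adjusted p = 3.89e-09; 4.44 ± 0.15 against e1, adjusted p = 1.53e-08). In e1 it did not pass (0.30 ± 0.15, adjusted p = 0.102), but passed without e1 library 1 (0.45, adjusted p = 0.00753). Rasgrf1 in e2 and Igf2 in e1 are thus paternally used genes that were near 0 in parental cells and reached 18.0 TPM or more in a single line. Peg13, a noncoding RNA, stood at 9.98 ± 0.190 TPM in e2, 3.40 ± 0.519 TPM in e1 and 3.80 ± 0.386 TPM in parental cells, and rose in e2 (1.20 ± 0.10, adjusted p = 3.55e-06). It lies within the span of Trappc9, which also rose in e2 (0.58 ± 0.08, adjusted p = 7.95e-05), and reads of overlapping genes cannot be assigned without strand. Sfmbt2, a Polycomb protein gene, rose more in e1 (1.42 ± 0.09, adjusted p = 4.31e-07) than in e2 (0.32 ± 0.09, adjusted p = 0.00837), and e2 was below e1 by -1.10 ± 0.09 (adjusted p = 3.45e-06).

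Snrpn, a splicing protein gene of the cluster that also holds Ndn, stood at 0.0492, 0.358 and 0.252 TPM in e2, was listed at 0 in all e1 libraries, and stood at 4.01, 6.84 and 8.57 TPM in parental cells. It fell in both lines by the test (adjusted p = 2.36e-06 in e2 and 1.23e-06 in e1). Within that cluster Ndn was thus highest in e2, and Snrpn and Mkrn3 were highest in parental cells. Slc38a4, an amino acid transporter gene, rose to 0.949, 0.680 and 0.864 TPM in e2, against 0.0551, 0.0411 and 0.0390 TPM in e1 and 0.0156, 0.0453 and 0 TPM in parental cells (no filter, 0.84 ± 0.05 in e2 against parental cells, adjusted p = 1.85e-06).

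Cd81, a tetraspanin gene near the Cdkn1c cluster, was the most abundant of the maternal list, at 320.3 ± 6.66 TPM in e2, 192 ± 33.8 TPM in e1 and 148 ± 3.20 TPM in parental cells. It rose in e2 (1.11 ± 0.11, adjusted p = 1.16e-05) and in e1 (0.36 ± 0.11, adjusted p = 0.0154), and the call in e1 ended without e1 library 2 (0.28, adjusted p = 0.0575) and without e1 library 3 (0.29, adjusted p = 0.0573). Igf2r, the receptor that clears Igf2, did not pass in e2 (-0.26 ± 0.14, adjusted p = 0.125) or in e1 (-0.06 ± 0.14, adjusted p = 0.717). In e2 it passed with the replicate block (adjusted p = 0.0423). Airn, the paternal antisense RNA that overlaps Igf2r, rose in e2 (0.89 ± 0.11, adjusted p = 6.66e-05) and in e1 (0.77 ± 0.11, adjusted p = 0.000197), with the limit that reads of overlapping genes cannot be assigned without strand.

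Of 23 listed genes that set or keep imprints, 17 were tested. In e2 4 were higher and 10 lower, beside 40.8% higher and 32.7% lower among all tested genes, of which 73.5% were called. The median log2 fold change was -0.32 beside 0.07 over all tested genes. In e1 8 were higher and 5 lower, beside 35.7% and 34.9% of all tested genes (70.6% called), with a median of 0.01 beside 0.02. In e2 against e1, 3 were higher and 11 lower, beside 40.6% and 29.7% of all tested genes (70.3% called). Zfp57, which binds methylated control regions and recruits the silencing complex, stood at 1.64, 1.95 and 1.67 TPM in e2, at 4.79, 2.91 and 3.48 TPM in e1, and at 19.3, 24.5 and 23.7 TPM in parental cells. It fell in both lines (-3.09 ± 0.15 in e2, adjusted p = 5.44e-08; -2.32 ± 0.15 in e1, adjusted p = 4.58e-07) with no overlap between any groups. Zfp445, a related zinc finger protein that acts beside it, went up instead, to 16.4 ± 0.708 TPM in e2 and 12.0 ± 0.596 TPM in e1, against 5.66 ± 0.385 TPM in parental cells (1.39 ± 0.07, adjusted p = 8.36e-08, and 0.97 ± 0.07, adjusted p = 1.18e-06). Trim28, the corepressor both recruit, was lower in e2 (-0.44 ± 0.06, adjusted p = 0.000148) and higher in e1 (0.31 ± 0.06, adjusted p = 0.0015). Dnmt1, which copies methylation after replication, rose in e1 (130 ± 6.09 TPM in e1 against 76.0 ± 0.899 TPM in parental cells; 0.76 ± 0.05, adjusted p = 5.41e-07). In e2 its value of 0.22 ± 0.05 (adjusted p = 0.0024) lost the call with median-ratio scaling (0.13, adjusted p = 0.0623) and with the rlog values (0.11, adjusted p = 0.0896).

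**Figure D4:**
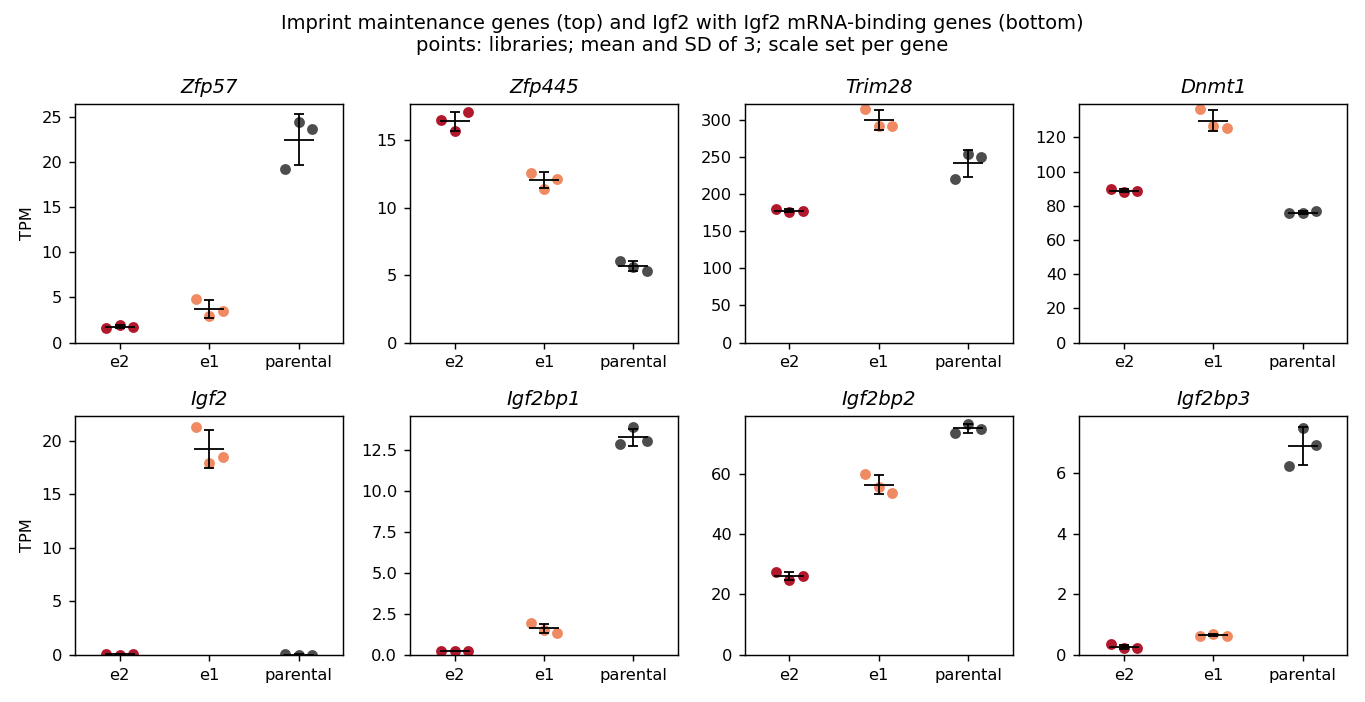
TPM of the imprint-keeping genes Zfp57, Zfp445, Trim28 and Dnmt1 (top row) and of Igf2 and the genes for its mRNA-binding proteins Igf2bp1, Igf2bp2 and Igf2bp3 (bottom row) in e2, e1 and parental libraries, with the scale set per gene. Points are libraries and bars give the mean and SD of 3. Zfp57 and the 3 binding protein genes are lowest in e2 and highest in parental cells, while Igf2 is high only in e1 among these libraries.

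Partners of the imprinted products were followed in a list of 16, of which 15 were tested. Among these Igf2 entered the test through e1 alone and Igf2bp3 through parental cells alone. In e2 2 were higher and 7 lower, beside 40.8% higher and 32.7% lower among all tested genes, of which 73.5% were called. The median was -0.22 beside 0.07 over all tested genes. In e1 6 were higher and 6 lower, beside 35.7% and 34.9% of all tested genes (70.6% called), with a median of -0.09 beside 0.02. In e2 against e1, 3 were higher and 10 lower, beside 40.6% and 29.7% of all tested genes (70.3% called). The RNA-binding protein genes Igf2bp1, Igf2bp2 and Igf2bp3, whose products bind the mRNA of Igf2 and also H19, fell in both lines. Igf2bp1 stood at 0.224 ± 0.0144 TPM in e2, 1.61 ± 0.301 TPM in e1 and 13.3 ± 0.542 TPM in parental cells (-3.54 ± 0.09, adjusted p = 1.08e-09, and -2.46 ± 0.09, adjusted p = 1.26e-08). Igf2bp3 stood at 0.274 ± 0.0682 TPM in e2, 0.650 ± 0.0304 TPM in e1 and 6.89 ± 0.629 TPM in parental cells. Igf2bp2, the most abundant, stood at 26.2 ± 1.33 TPM in e2, 56.4 ± 3.11 TPM in e1 and 74.9 ± 1.51 TPM in parental cells. Irs2, a substrate of the receptors that Grb10 damps, fell in e2 (-1.30 ± 0.12, adjusted p = 5.48e-06) and rose in e1 (0.49 ± 0.12, adjusted p = 0.00395). Ccne1, the cyclin partner of a kinase that p57 inhibits, fell in e2 (-1.21 ± 0.08, adjusted p = 7.53e-07) and in e1 (-0.81 ± 0.08, adjusted p = 1.48e-05), and E2f1, a transcription factor that necdin binds, rose in e2 (1.05 ± 0.05, adjusted p = 1.07e-07) and in e1 (0.75 ± 0.05, adjusted p = 1.32e-06).

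For the 3 tested imprinted genes the most similar genes were sought among the 12769 tested genes, leaving out predicted, clone-named and pseudogene symbols. The measure was the root-mean-square difference over the 9 libraries of log2(TPM + 1) minus the parental mean. The nearest to H19 were Bnc2, a zinc finger gene (difference of 0.166), and Six3, a homeobox gene (0.223). Bnc2 stood at 0.252 ± 0.0525 TPM in e2, 7.27 ± 0.118 TPM in e1 and 0.0104 ± 0.0112 TPM in parental cells. Mest was closest to Usp43, a ubiquitin protease gene (0.155), and to Fam46b (0.162), and Cdkn1c to Card6 (0.216) and Dusp2, a phosphatase gene of MAP kinases (0.216). This is a description of likeness over these 9 libraries only.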

How the data were processed

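Per the labels, RNA of 9 samples of mouse pancreatic tumor cells was sequenced by a commercial provider, and titles give each sample its group and number. TPM per gene and rlog values, which are on a log2 scale, are the 2 tables the authors deposited. Per the submitters' processing notes, Salmon, DESeq2 and mm10 were used. Versions, annotation and strand setting were not given in the sources used here. Intervals from counts cannot be formed from TPM.

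From the deposited TPM, log2(TPM + 1) was computed, and 12769 of 24493 genes were kept, those that reached 1 TPM in 3 or more libraries. Group means were compared in limma 3.58.1 (R 4.3.3), with trend and robust options in its empirical Bayes step. The two-sided p-values were adjusted by Benjamini-Hochberg over all genes tested. The fits were tested on simulated data. Same-numbered libraries did not deviate together, so the number was used as a block only in an alternative. The tests were repeated with the replicate block, without the trend and robust options, on the rlog values, after median-ratio scaling, without the 10 highest genes, with other filters (none, or 5 TPM), with a pseudocount of 0.1, with the compared groups alone, and without each library.

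The members, lists and alternatives were chosen with earlier results of these data known. Named genes are all 10 members, up to 3 called genes highest and 3 lowest per list and comparison and 9 genes named whatever their result, the nearest genes and the 2 most similar genes. The text names fewer than the rule gives. The window of 300 kb, the genes named from it, the Zfp57 core, Igf2os and Trappc9 were chosen after values were seen. Coordinates, promoters (250 bases before to 50 after a start) and microRNAs are from RefSeq, GRCm38.p6, matched by symbol, with promoters for 7 of the 10 members. That of H19, Peg10 and Cdkn1c was not used here.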

Additional observations from a re-analysis of the deposited data

Results flagged for a closer look

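Only a part of the listed genes was screened here, and further listed genes were called in e2 against e1, as the counts above give. In 22 of the results screened the change against parental cells differed between e2 and e1 by the limma test of e2 against e1. In that test the parental libraries cancel, and 70.3% of all tested genes were called, so a call does not set these genes apart. No explanation was weighed for any of the 22, and all values are differences of e2 minus e1 on the log2(TPM + 1) scale.

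Of the 10 imprinted genes, H19 (-2.74), Mest (-1.27) and Cdkn1c (-2.01) were lower in e2 than in e1. Cdkn1c moved in opposite directions in the lines, and H19 was called against parental cells only in e1. For Igf2 the difference was -4.23, the largest in size among the 22 together with that of Rasgrf1, 4.44, which ran the other way.

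Among the other imprinted genes, e2 was higher than e1 for Peg13 (1.33), Cd81 (0.75), Copg2 (0.70), Dio3 (0.64) and Kcnq1ot1 (0.28). It was lower for Sfmbt2 (-1.10) and Mkrn3 (-0.48).

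Of the imprint-keeping genes, Zfp445 was higher in e2 than in e1 (0.42), and Zfp57 (-0.76), Trim28 (-0.75) and Dnmt1 (-0.54) were lower. Of the partners, E2f1 was higher in e2 (0.30), and Irs2 (-1.79), Igf2bp1 (-1.09), Igf2bp2 (-1.08), Ccne1 (-0.40) and Igf2bp3 (-0.37) were lower.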

How the results depend on the processing

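The counts of called imprinted genes changed with the filter on low values. With no filter 5 of the 10 were called in e1 against parental cells, 7 in e2 against parental cells and 7 in e2 against e1, because the other 7 genes were then tested. With a filter of 5 TPM, under which Cdkn1c was not tested, 1 was called in e2 against parental cells, 2 in e1 against parental cells and 2 in e2 against e1. Leaving out each library in turn gave 3 calls in e1 against parental cells, 2 to 3 in e2 against parental cells, H19 being the added gene, and 3 in e2 against e1. Directions turned for 2 genes that were not called in the comparison: leaving out each library gave Igf2r values from -0.186 to 0.0978 in e1 against parental cells, above 0 without parental library 1 and without e1 library 2 (0.02), and Phlda2 values from -0.310 to 0.0796 in e2 against e1, above 0 without e1 library 1. Of the other values for single genes, 13 gained and 14 lost a call, and 1443 were labelled as unchanged. For genes tested at 1 TPM, unchanged means the same direction and call. For genes under that filter only the log2 difference was compared. It is the same by construction with no filter, and no call was compared.

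The library numbers did not pair the samples: deviations of same-numbered libraries correlated between -0.13 and 0.0499. With the replicate block 8742, 9163 and 8740 genes of the table were called for e1 against parental cells, e2 against parental cells and e2 against e1, against 9014, 9383 and 8981 without it. A pseudocount of 0.1 widened changes of low genes, so that H19 in e1 against parental cells was 5.82 rather than 2.98. TPM keeps no read depth, so levels under 1 TPM may rest on few reads, and their counting error is unknown.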

Other observations

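Other genes near the imprinted loci had changes of their own, named here after their values were seen. Ctsd, the lysosomal protease cathepsin D and 188 kb from H19, stood at 794, 778 and 780.5 TPM in e2, at 263, 284 and 288 TPM in e1, and at 466, 410 and 400 TPM in parental cells. It rose in e2 (0.89, adjusted p = 1.14e-06) and fell in e1 (-0.61, adjusted p = 1.86e-05). Ifitm10, a gene of the interferon-induced transmembrane family 202 kb from H19, stood at 5.19, 4.97 and 4.16 TPM in e2, at 15.3, 20.7 and 20.7 TPM in e1, and at 3.90, 3.83 and 3.16 TPM in parental cells (0.32, adjusted p = 0.048, in e2, and 2.10, adjusted p = 4.03e-07, in e1).

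Cobl, an actin-nucleating protein gene 199 kb from Grb10, fell in both lines, to at most 0.0956 TPM in e2 and 0.0588 TPM in e1, against 5.73, 7.29 and 8.31 TPM in parental cells (adjusted p = 1.37e-08 in e2 and 1.29e-08 in e1). Cobl entered the test only through the parental libraries.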
